A study of Mus musculus with 3 samples.

Results

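The genes described here encode the soluble hydrolases of the lysosome, its membrane proteins, and subunits of its proton pump, the vacuolar ATPase (V-ATPase). A list of 32 genes was matched by gene symbol to the annotation of the arrays, and the cathepsins were kept apart as a separate list. Of these 32 genes, 31 had a probe named in the annotation and 30 were measured, out of 10603 genes measured in all. Atp6v0c, a proteolipid of the pump's membrane ring, had no probe named there. The single probe of Aga, an enzyme that cuts sugar chains off asparagine, was not detected on any array (detection p of 0.181 in HFD-Rapa, 0.268 in HFD-Ve and 0.514 in LFD-Ve).

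Lysosomes break down lipids, glycans and proteins at an acid pH, which the V-ATPase maintains by pumping protons across their membrane. The kinase complex mTORC1, the target of rapamycin, sits on the lysosomal surface and holds the transcription factors TFEB, TFE3 and MITF (the MiT/TFE family) out of the nucleus. These factors bind a short palindromic element, the E-box CACGTG and its longer form TCACGTGA, in front of many lysosomal genes. In fat tissue, lysosomal enzymes are abundant in macrophages, which engulf dying adipocytes and digest their lipid.

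Total RNA from the visceral white adipose tissue of C57BL/6JRj mice was hybridized to 3 Illumina mouse bead arrays, 1 for each of 3 groups. Mice on a high-fat diet that were injected weekly with rapamycin for 22 weeks (HFD-Rapa) were set against mice on the same diet injected with the vehicle (HFD-Ve), and both against lean vehicle mice (LFD-Ve). The labels give a low-fat diet and an age of 28 weeks for the lean mice, and the same age for both obese groups, while the methods speak of regular chow and a different schedule. RNA of several mice was pooled in each group, the study used males and females, and which of them entered a pool is not stated in the sources used here. With 1 array per group the differences could not be checked in replicates and were not tested. Values are log2 signals after background correction and quantile normalization, a difference of 1 on this scale is a 2-fold change, and the brightest detected probe stands for its gene. A difference of at least 1.5-fold was counted as higher or lower. The 3 comparisons share arrays, so that a gene high on the HFD-Ve array is at once high against LFD-Ve and low under HFD-Rapa.

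In bulk tissue, fewer cells of a type and less RNA per cell cannot be told apart. Of the 45281 probes on an array, 39.7% were detected in HFD-Rapa, 38.8% in HFD-Ve and 37.4% in LFD-Ve, and the median raw signal was 102.5 in HFD-Rapa, 106.9 in HFD-Ve and 92.7 in LFD-Ve. The adipocyte markers Adipoq and Plin1 were detected on all 3 arrays. None of the 7 listed genes of epididymis and testis was measured, and of the 5 genes listed each for ovary and female tract, skeletal muscle and pancreas 1 was measured.

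Promoter sequence was taken from RefSeq (GRCm38.p6), in windows of 250 bases before to 50 bases after each start site, and 27 of the 32 genes had a window there, 31 windows in all. Npc1, Aga, Asah1, Atp6v1b2 and Atp6v1h had none. CACGTG, which reads the same on both strands, was found in 9 of these 27 genes (33.3%). It was found in 8.09% of the 27025 genes with a promoter window and in 12% of the measured genes that have one. In other lists described below, the share was 36.4% for cathepsins and cystatin C, 35.7% for enzyme targeting and 28.6% for other lysosomal enzymes. For autophagy genes it was 16.7%, for other lysosomal membrane proteins 11.8%, for other V-ATPase subunits 7.69% and for MiT/TFE factors 0%. TCACGTGA, which contains the shorter motif, was found in 4 of the 27 (14.8%). It was found in 1.12% of the 27025 genes and in 2.24% of the measured genes that have a window. The stretches below are shown because they hold the motif upstream of the start in 8 of the 9 genes, and the capitals mark the longest match, CACGTG or TCACGTGA.
Lamp1: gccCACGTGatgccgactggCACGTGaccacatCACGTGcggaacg
Mcoln1: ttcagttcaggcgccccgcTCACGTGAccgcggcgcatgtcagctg
Cln3: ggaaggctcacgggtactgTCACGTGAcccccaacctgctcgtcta
Glb1: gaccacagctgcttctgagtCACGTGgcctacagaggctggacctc
Naglu: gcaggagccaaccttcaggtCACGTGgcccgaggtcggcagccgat
Sgsh: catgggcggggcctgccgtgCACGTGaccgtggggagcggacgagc
Atp6v0b: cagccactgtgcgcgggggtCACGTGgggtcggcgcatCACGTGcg
Atp6v1a: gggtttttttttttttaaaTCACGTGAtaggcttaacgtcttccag

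These stretches lie at chr8:13159113-13159158 (Lamp1), chr8:3500454-3500499 (Mcoln1), chr9:114401010-114401055 (Glb1) and chr11:101070001-101070046 (Naglu) on the plus strand. On the minus strand they lie at chr7:126583332-126583377 (Cln3), chr11:119355514-119355559 (Sgsh), chr4:117887340-117887385 (Atp6v0b) and chr16:44139365-44139410 (Atp6v1a), and they are written 5′ to 3′ on the strand of the gene. Lamp1 had 4 copies of CACGTG within its window, and the ninth gene was Atp6v0d1. A match describes these letters only and is not evidence that a factor binds there.

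Across the 30 genes, the HFD-Ve array stood above the LFD-Ve array and the HFD-Rapa array slightly above the HFD-Ve array. Between HFD-Ve and LFD-Ve, 10 genes were at least 1.5-fold higher (15.1% of all measured genes were) and 1, Fuca1, was lower (11.7% of all genes), while under median scaling 18 were higher and 0 lower. The 10 were Lipa, Glb1, Gusb, Atp6v1b2, Atp6v1a, Hexa, Npc2, Sgsh, Man2b1 and Npc1, and their share of the 30 was 33.3%. A difference above 0 was seen for 27 of the 30 genes, against 45.2% of all genes, and the median log2 difference of the 30 genes was 0.52, against -0.05 over all genes.

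Between HFD-Rapa and HFD-Ve only Atp6v0b and Fuca1 were at least 1.5-fold higher, 6.67% of the 30 genes against 8.55% of all genes, and Arsb was lower, against 7.56% of all genes. The counts at this threshold thus did not exceed the background. The differences were small and mostly above 0, for 25 of the 30 genes (83.3%, and 22 genes under median scaling) against 52.4% of all genes, with a median log2 difference of 0.24 against 0.02 over all genes. Just under the threshold, between 1.4- and 1.5-fold higher, lay Npc1, Atp6v1a and Lipa.

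Between HFD-Rapa and LFD-Ve, 18 genes were at least 1.5-fold higher and 0 lower, against 20.5% and 19.5% of all genes. A difference above 0 was seen for 26 of the 30 genes (47.6% of all genes), and the median log2 difference was 0.73, against -0.04 over all genes. When the arrays were scaled to their medians rather than quantile normalized, the median of all genes moved to -0.09 for HFD-Rapa against HFD-Ve and to 0.15 for HFD-Ve against LFD-Ve. All genes then split into 5.99% higher and 10.7% lower in the first comparison and 21.7% higher and 6.57% lower in the second. Relative to the median of all genes, that of the 30 genes was 0.22 for HFD-Rapa against HFD-Ve and 0.57 for HFD-Ve against LFD-Ve under quantile normalization, and 0.25 and 0.58 under median scaling.

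**Figure D1:**
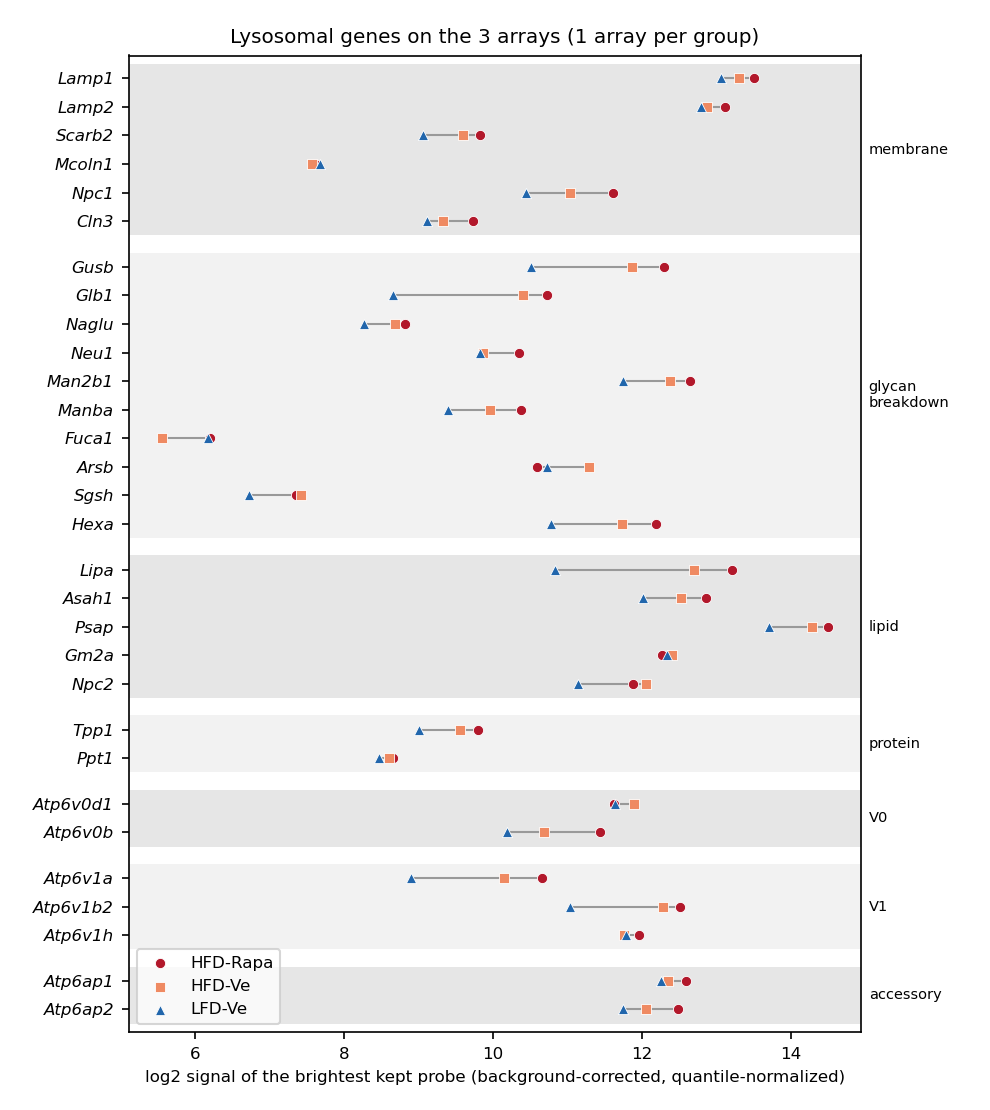
Log2 signal (x axis) of the 30 measured lysosomal genes (y axis, grouped by role) on the HFD-Rapa array (circles), the HFD-Ve array (squares) and the LFD-Ve array (triangles), each point being the brightest kept probe on 1 array; levels of different genes are not comparable. Lipa, Glb1 and Atp6v1a show wide gaps between LFD-Ve and both obese groups, while Arsb and Atp6v0d1 have their highest value in HFD-Ve.

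Among the lysosomal membrane proteins, Npc1 was the only 1 of 6 genes at least 1.5-fold higher in HFD-Ve than LFD-Ve. This share, 16.7%, was near the 15.1% of all genes. Between HFD-Rapa and HFD-Ve no gene passed this threshold, where 8.55% of all genes were higher and 7.56% lower. Npc1, which exports cholesterol from the lysosome, had a log2 signal of 11.61 in HFD-Rapa, 11.03 in HFD-Ve and 10.44 in LFD-Ve. The difference was 0.58 for HFD-Rapa against HFD-Ve and 0.59 for HFD-Ve against LFD-Ve, so that both lay at the threshold, and the second was below it under 4 of the 11 alternatives that give a value for each gene. Several of these alternatives, the other detection filters among them, could not change any of the 30 genes, which were detected on all 3 arrays. The 3 kept probes of Npc1 disagreed for HFD-Rapa against HFD-Ve, with differences of 0.58, -0.73 and 1.0, while for HFD-Ve against LFD-Ve they were 0.59, 0.52 and 1.19. The direction of Npc1 under rapamycin therefore depended on the probe.

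Lamp1 and Lamp2 encode the glycosylated proteins that line the inner face of the membrane. Lamp1 had 13.50 in HFD-Rapa, 13.31 in HFD-Ve and 13.06 in LFD-Ve, differences of 0.18 for HFD-Rapa against HFD-Ve and 0.26 for HFD-Ve against LFD-Ve. Lamp2 had 13.12 in HFD-Rapa, 12.87 in HFD-Ve and 12.80 in LFD-Ve. All 5 kept probes of Lamp2 were higher in HFD-Rapa than HFD-Ve, by 0.18 to 0.38.

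Scarb2, the receptor that carries glucocerebrosidase to the lysosome, had 9.82 in HFD-Rapa, 9.59 in HFD-Ve and 9.06 in LFD-Ve. Cln3, a membrane protein mutated in juvenile Batten disease, had 9.73 in HFD-Rapa, 9.33 in HFD-Ve and 9.11 in LFD-Ve. Against LFD-Ve, the HFD-Rapa difference of both genes passed 1.5-fold (0.76 for Scarb2 and 0.63 for Cln3), although that of Cln3 did not without background correction or in the authors' processed values. Mcoln1, the cation channel through which calcium leaves the lysosome, was nearly level, at 7.60 in HFD-Rapa, 7.57 in HFD-Ve and 7.67 in LFD-Ve. The signs of its small differences changed under median scaling.

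Of the 10 measured enzymes that take apart glycans and glycosaminoglycans, 5 were at least 1.5-fold higher in HFD-Ve than LFD-Ve, where 15.1% of all genes were. Both genes with a lower call in any comparison, Arsb and Fuca1, were among these enzymes. Glb1, the β-galactosidase, had 10.73 in HFD-Rapa, 10.40 in HFD-Ve and 8.65 in LFD-Ve. It was 3.34-fold higher in HFD-Ve than LFD-Ve and 1.26-fold higher in HFD-Rapa than HFD-Ve. Gusb, the β-glucuronidase, had 12.30 in HFD-Rapa, 11.87 in HFD-Ve and 10.51 in LFD-Ve. The 4 kept probes of Gusb were 1.07 to 1.63 higher on the log2 scale in HFD-Ve than LFD-Ve and 0.12 to 0.43 higher in HFD-Rapa than HFD-Ve.

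Hexa, the α chain of β-hexosaminidase A, had 12.19 in HFD-Rapa, 11.73 in HFD-Ve and 10.78 in LFD-Ve, 1.38-fold higher in HFD-Rapa than HFD-Ve and 1.92-fold higher in HFD-Ve than LFD-Ve. The α-mannosidase Man2b1 had 12.64 in HFD-Rapa, 12.38 in HFD-Ve and 11.75 in LFD-Ve, and its difference of 0.63 between HFD-Ve and LFD-Ve fell short of 1.5-fold under 1 of 11 alternatives, the shift to a common 75th percentile. Manba, the β-mannosidase, had 10.37 in HFD-Rapa, 9.96 in HFD-Ve and 9.39 in LFD-Ve. Neither mannosidase passed 1.5-fold between HFD-Rapa and HFD-Ve.

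Of the heparan sulfate enzymes, Sgsh, a sulfamidase, had 7.35 in HFD-Rapa, 7.42 in HFD-Ve and 6.72 in LFD-Ve. The call of Sgsh against LFD-Ve (0.70 for HFD-Ve) was lost under 3 of 11 alternatives, namely no background correction, an offset of 50 and the authors' processed values. Only 1 probe of Sgsh was kept, and every array detected it. The other detection filters, the mean of a gene's probes and the bounds therefore could not change this call. Naglu, an N-acetylglucosaminidase, had 8.81 in HFD-Rapa, 8.68 in HFD-Ve and 8.27 in LFD-Ve. The sialidase Neu1 had 10.35 in HFD-Rapa, 9.86 in HFD-Ve and 9.82 in LFD-Ve, so that HFD-Rapa stood 0.48 above HFD-Ve while both vehicle groups were nearly level.

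Arsb, a sulfatase of dermatan and chondroitin sulfate, was the only 1 of the 30 genes at least 1.5-fold lower under rapamycin. Its log2 signal was 10.59 in HFD-Rapa, 11.29 in HFD-Ve and 10.73 in LFD-Ve, 1.62-fold lower in HFD-Rapa than HFD-Ve. The corresponding raw signals were 1601.4 in HFD-Rapa, 2827.5 in HFD-Ve and 1626.7 in LFD-Ve. A second, dim probe of Arsb differed by only -0.06 between HFD-Rapa and HFD-Ve, and with the mean of both probes the difference was -0.38, under the threshold.

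Fuca1, the α-fucosidase, lay close to the detection limit, at 6.20 in HFD-Rapa, 5.55 in HFD-Ve and 6.17 in LFD-Ve, where the lowest signals that counted as detected were 5.26, 5.34 and 5.48 on the HFD-Rapa, HFD-Ve and LFD-Ve arrays. It was 1.56-fold higher in HFD-Rapa than HFD-Ve and 1.53-fold lower in HFD-Ve than LFD-Ve, the only gene with a lower call against LFD-Ve. Both calls were lost without background correction, where the differences were 0.28 and -0.26. A second probe of Fuca1 just missed the detection filter (detection p of 0.0128 in HFD-Rapa, 0.0118 in HFD-Ve and 0.0353 in LFD-Ve). It showed neither change, with differences of -0.01 for HFD-Rapa against HFD-Ve and 0.23 for HFD-Ve against LFD-Ve. The HFD-Ve call was lost under 5 of 11 alternatives in all, median scaling among them. Fuca1 had only 1 kept probe, which every array detected. The other detection filters, the mean of a gene's probes and the bounds therefore could not change either call. Of the alternatives that could change the HFD-Ve call, only the shift to a common percentile kept it.

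Of the proteins that act on lipids, Lipa showed the widest gap of all 30 genes. Lipa, the acid lipase that frees fatty acids and cholesterol from engulfed lipid, had 13.21 in HFD-Rapa, 12.70 in HFD-Ve and 10.83 in LFD-Ve. Lipa was thus 3.67-fold higher in HFD-Ve than LFD-Ve and 1.42-fold higher in HFD-Rapa than HFD-Ve. Its second probe gave log2 differences of 2.03 and 0.57 for the same comparisons, so the 2 probes of Lipa differed little.

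The sterol carrier Npc2, which hands cholesterol to Npc1 inside the lysosome, had 11.88 in HFD-Rapa, 12.05 in HFD-Ve and 11.14 in LFD-Ve. It was 1.89-fold higher in HFD-Ve than LFD-Ve and 1.13-fold lower in HFD-Rapa than HFD-Ve. Psap, the precursor of the saposins that help sphingolipid hydrolases, had 14.50 in HFD-Rapa, 14.28 in HFD-Ve and 13.71 in LFD-Ve. The second probe of Psap passed 1.5-fold between HFD-Ve and LFD-Ve (log2 difference 1.12) where the brightest one did not (0.57).

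Asah1, the acid ceramidase, had 12.86 in HFD-Rapa, 12.53 in HFD-Ve and 12.02 in LFD-Ve, 1.26-fold higher in HFD-Rapa than HFD-Ve and 1.41-fold higher in HFD-Ve than LFD-Ve. Gm2a, the activator protein that lifts the ganglioside substrate of Hexa out of the membrane, was nearly level instead. Gm2a had 12.27 in HFD-Rapa, 12.40 in HFD-Ve and 12.34 in LFD-Ve. Of the remaining hydrolases, the peptidase Tpp1 had 9.80 in HFD-Rapa, 9.56 in HFD-Ve and 9.01 in LFD-Ve. Ppt1, which removes palmitate from proteins, had 8.66 in HFD-Rapa, 8.60 in HFD-Ve and 8.46 in LFD-Ve. Tpp1 thus lay just under 1.5-fold against LFD-Ve in HFD-Ve (1.47-fold) and Ppt1 was nearly level on the 3 arrays.

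**Figure D2:**
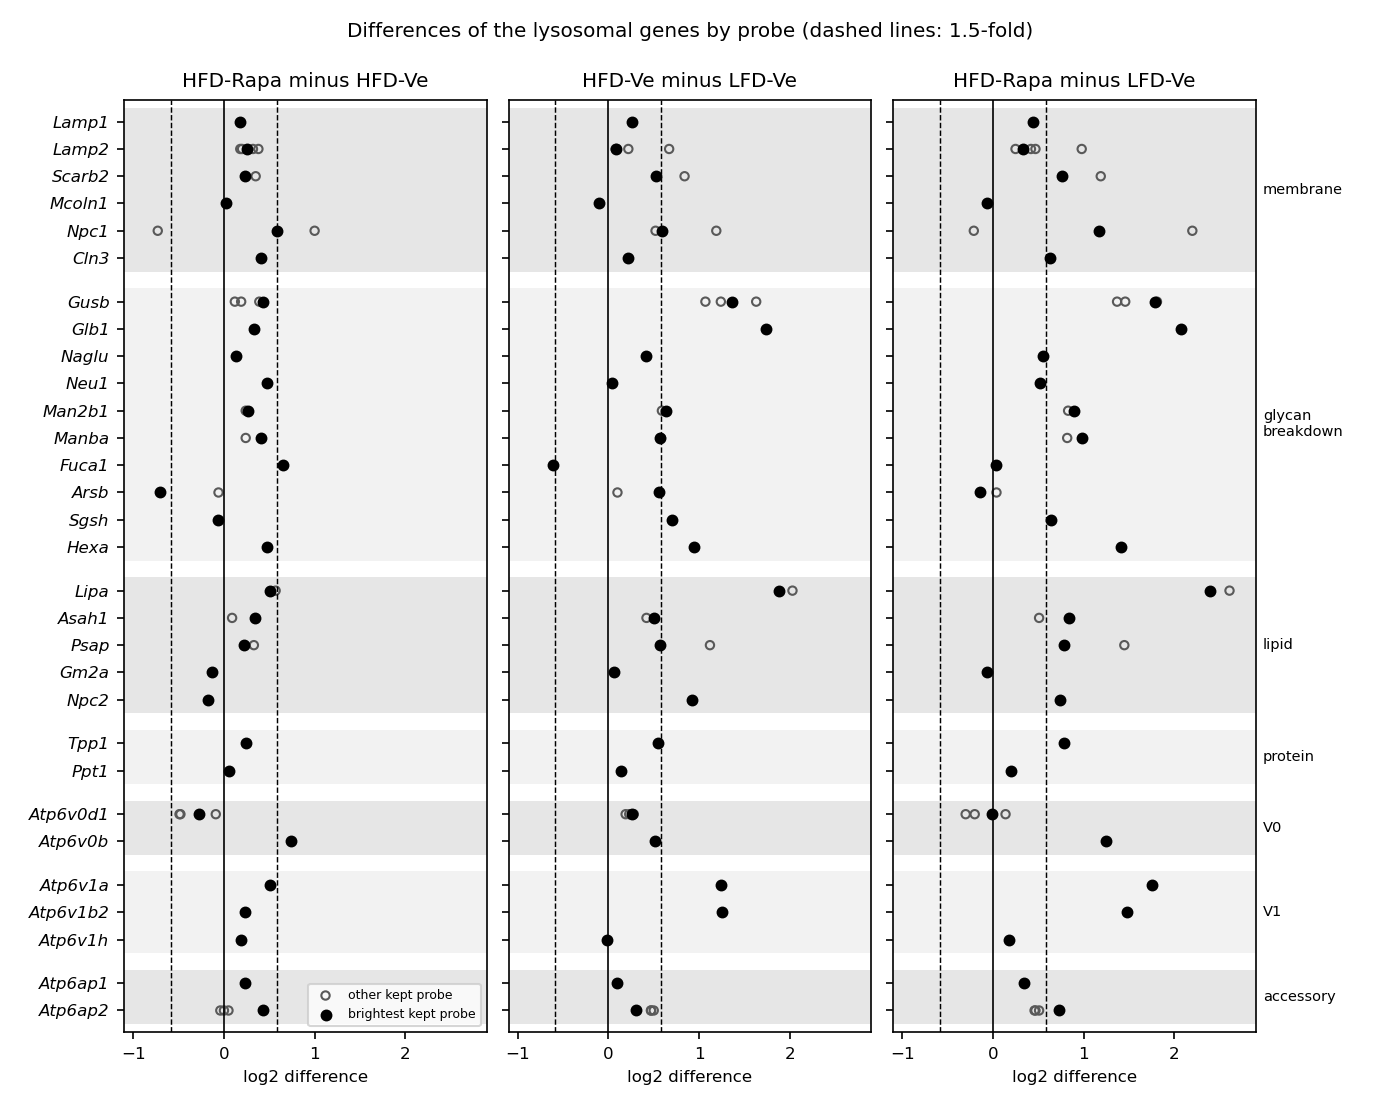
Log2 difference (x axis) of each lysosomal gene (y axis, grouped by role) for HFD-Rapa minus HFD-Ve, HFD-Ve minus LFD-Ve and HFD-Rapa minus LFD-Ve, with the brightest kept probe filled, other kept probes open and dashed lines at 1.5-fold. For HFD-Rapa minus HFD-Ve only Atp6v0b and Fuca1 lie right of the upper line and Arsb left of the lower one among filled points, while for HFD-Ve minus LFD-Ve 10 filled points lie right of it.

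The V-ATPase consists of a membrane sector, V0, through which protons pass, and a peripheral sector, V1, which hydrolyses ATP. Of its 7 measured genes on the list, Atp6v1a and Atp6v1b2 were at least 1.5-fold higher in HFD-Ve than LFD-Ve (28.6%, against 15.1% of all genes). In HFD-Rapa against HFD-Ve, Atp6v0b was so (14.3%, against 8.55% of all genes). The median log2 difference of the 7 was 0.23 for HFD-Rapa against HFD-Ve and 0.30 for HFD-Ve against LFD-Ve, against 0.25 and 0.55 for the other 23 genes.

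In V1, Atp6v1a, the catalytic subunit, had 10.66 in HFD-Rapa, 10.14 in HFD-Ve and 8.90 in LFD-Ve, 1.43-fold higher in HFD-Rapa than HFD-Ve and 2.36-fold higher in HFD-Ve than LFD-Ve. Its partner in the catalytic ring, Atp6v1b2, had 12.51 in HFD-Rapa, 12.28 in HFD-Ve and 11.03 in LFD-Ve, 1.17-fold and 2.38-fold higher in the same comparisons. The regulatory subunit Atp6v1h had 11.96 in HFD-Rapa, 11.76 in HFD-Ve and 11.78 in LFD-Ve. The step between the vehicle groups that both ring subunits showed was thus not seen for Atp6v1h, whose difference there was -0.02 (0.15 under median scaling).

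In V0, Atp6v0b, a proteolipid of the rotating ring, had 11.44 in HFD-Rapa, 10.69 in HFD-Ve and 10.19 in LFD-Ve. It was 1.67-fold higher in HFD-Rapa than HFD-Ve, and this call held under 11 of 11 alternatives, with log2 differences of 0.62 to 0.74. However, only 1 probe measured it, and every array detected that probe. The other detection filters, the mean of a gene's probes and the bounds therefore could not change this difference. Atp6v0d1, which joins the ring to the central stalk, had 11.63 in HFD-Rapa, 11.89 in HFD-Ve and 11.64 in LFD-Ve. All 4 kept probes of Atp6v0d1 were lower in HFD-Rapa than HFD-Ve, with log2 differences of -0.09 to -0.49, and higher in HFD-Ve than LFD-Ve, with differences of 0.19 to 0.28. The 2 measured V0 genes of the list therefore differed in direction between HFD-Rapa and HFD-Ve.

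The accessory protein Atp6ap1 had 12.59 in HFD-Rapa, 12.35 in HFD-Ve and 12.25 in LFD-Ve. Atp6ap2, known as the prorenin receptor, had 12.48 in HFD-Rapa, 12.05 in HFD-Ve and 11.75 in LFD-Ve. Its 4 kept probes gave differences of -0.04 to 0.43 for HFD-Rapa against HFD-Ve, so that only the brightest one stood clearly above 0, and 0.30 to 0.50 for HFD-Ve against LFD-Ve.

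Probes of the same gene are the only repeated measurement on these arrays, and they cover the probe, not the mice. For the 12 listed genes with several kept probes, the SD of the log2 difference between probes of a gene was 0.32 for HFD-Rapa against HFD-Ve and 0.22 for HFD-Ve against LFD-Ve. Over the 3941 genes with several kept probes the SD was 0.21 for the first comparison and 0.32 for the second. All probes of a gene had the same sign in 10 of the 12 genes for HFD-Rapa against HFD-Ve (not in Npc1 and Atp6ap2) and in 12 of 12 for HFD-Ve against LFD-Ve.

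**Figure D3:**
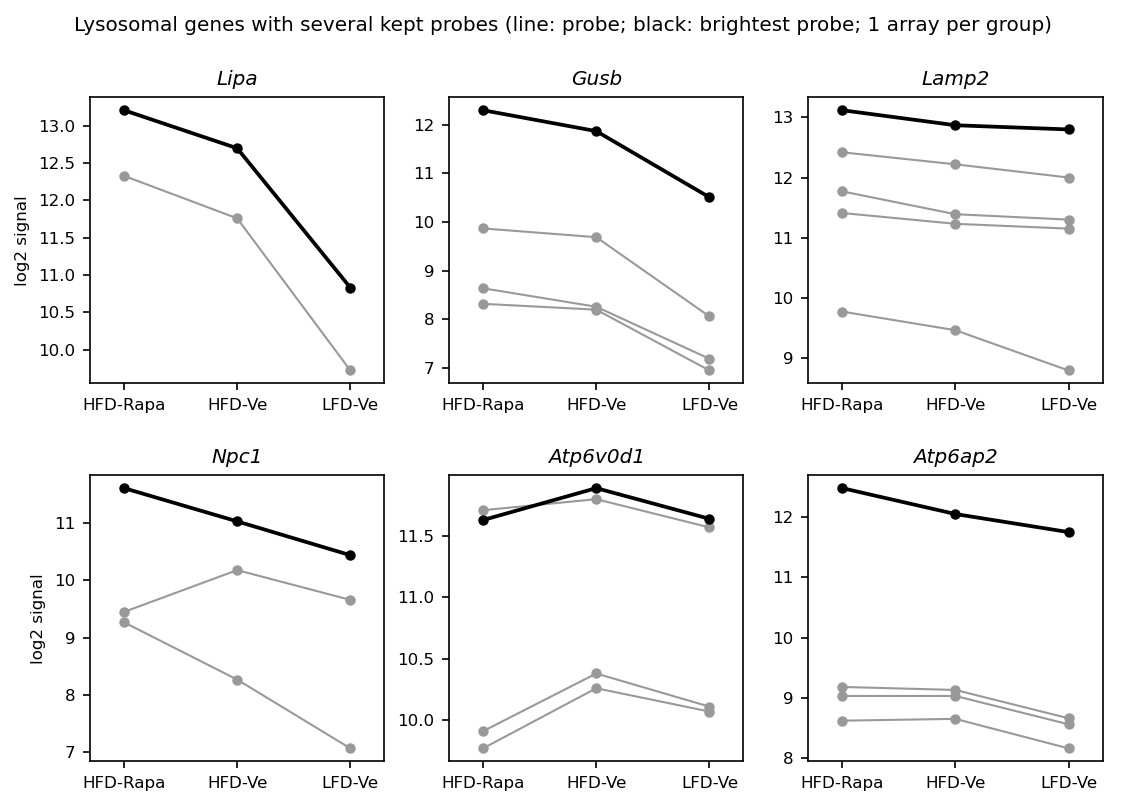
Log2 signal (y axis) of every kept probe of 6 lysosomal genes on the HFD-Rapa, HFD-Ve and LFD-Ve arrays (x axis), with the brightest probe in black and 1 value per array. The probes of Lipa and Gusb run in parallel, 1 of the 3 probes of Npc1 differs by -0.73 between HFD-Rapa and HFD-Ve where the other 2 differ by 0.58 and 1.0, and the 4 probes of Atp6v0d1 all have their highest value in HFD-Ve.

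Other genes of the lysosome differed in part from the 30 genes. Of the other lysosomal enzymes and activators, 21.1% passed 1.5-fold upward in HFD-Rapa against HFD-Ve, against 6.67% of the 30 genes and 8.55% of all genes. This share was 5.88% for other lysosomal membrane proteins and 5.56% for genes of enzyme targeting. In HFD-Ve against LFD-Ve it was 21.1%, 17.6% and 0% in the same order, against 33.3% of the 30 and 15.1% of all genes. Genes that stand in parentheses beside a count here were named after their values had been seen. Of 19 other lysosomal enzymes and activators measured, 4 were at least 1.5-fold higher (Dnase2a, Dpp7, Hgsnat and Galns) and 1 lower (Acp5) in HFD-Rapa relative to HFD-Ve, with a median log2 difference of 0.17. Between HFD-Ve and LFD-Ve 4 were higher (Lgmn, Dnase2a, Sumf1 and Idua, or 3 genes with undetected ones at their bounds) and 1 lower (Hyal1), with a median of 0.05. Lgmn, an asparagine-specific protease, was 3.67-fold higher in HFD-Ve than LFD-Ve, the same size as Lipa, and Acp5, the tartrate-resistant acid phosphatase, was 1.81-fold lower in HFD-Rapa than HFD-Ve. Of 17 other lysosomal membrane proteins, 1 was higher (Slc11a1) and 2 lower (Mfsd8 and Laptm4b) in HFD-Rapa than HFD-Ve, with a median of 0.11. Against LFD-Ve, 3 were higher (Slc11a1, Laptm5 and Laptm4b) and 1 lower (Abca2) in HFD-Ve, with a median of 0.16. The 18 genes for targeting of enzymes to the lysosome had medians of 0.07 for HFD-Rapa against HFD-Ve and 0.06 for HFD-Ve against LFD-Ve, and only Igf2r, the receptor for mannose phosphate tags, passed the threshold in either, 1.51-fold higher in HFD-Rapa than HFD-Ve.

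Of the 11 other V-ATPase subunits measured, 1 (Tcirg1) was at least 1.5-fold higher in HFD-Rapa relative to HFD-Ve (median 0.13). This share, 9.09%, was near the 8.55% of all genes. Against LFD-Ve, 3 were higher (Tcirg1, Atp6v0a1 and Atp6v1c1) and 1 lower (Atp6v0e2) in HFD-Ve (median -0.10), where 15.1% of all genes were higher and 11.7% lower. Tcirg1, a V0 subunit best known from osteoclasts, was 1.78-fold higher in HFD-Rapa than HFD-Ve and 2.77-fold higher in HFD-Ve than LFD-Ve. Atp6v0e2, a small V0 subunit, was 2.32-fold lower in HFD-Ve than LFD-Ve. Subunits of the pump outside the list thus differed in direction against LFD-Ve.

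The 30 genes described here had medians of 0.24 for HFD-Rapa against HFD-Ve and 0.52 for HFD-Ve against LFD-Ve. Those of the 14 measured genes among the cathepsins and cystatin C were larger, 0.47 and 0.70 (0.56 with undetected genes at their bounds). In HFD-Rapa 3 of the 14 (Ctsg, Ctss and Ctsl) stood at least 1.5-fold above HFD-Ve (21.4%, against 8.55% of all genes). In HFD-Ve 8 of the 14 (7 at their bounds) stood so above LFD-Ve (57.1%, against 15.1% of all genes). Ctsk, a collagen-degrading protease, was 12.5-fold higher in HFD-Ve than LFD-Ve, and Ctss, a protease of antigen-presenting cells, 10.1-fold.

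Of the 4 MiT/TFE transcription factors, 1 (Mitf) was at least 1.5-fold higher in HFD-Rapa against HFD-Ve and 2 (Mitf and Tfec, neither of them at its bound) in HFD-Ve against LFD-Ve. The shares of all genes in these comparisons were 8.55% and 15.1%. Tfe3, detected on all 3 arrays, had 8.49 in HFD-Rapa, 8.30 in HFD-Ve and 8.0 in LFD-Ve. Mitf had 7.19 in HFD-Rapa and 5.94 in HFD-Ve, a log2 difference of 1.25, and was not detected in LFD-Ve, against which HFD-Rapa was at least 3.27-fold and HFD-Ve at least 1.37-fold higher. Such a bound divides the brighter array's signal by the smallest signal that counted as detected on the dimmer array. Tfeb, named here after its values had been seen, had 5.35 in HFD-Rapa, 5.38 in HFD-Ve and 5.27 in LFD-Ve, the last of these not detected. mRNA levels do not show where in the cell these factors are.

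The 9 measured genes with CACGTG in their promoter window had log2 differences of -0.27 (Atp6v0d1) to 0.74 (Atp6v0b) for HFD-Rapa against HFD-Ve, with a median of 0.18, and of -0.10 (Mcoln1) to 1.74 (Glb1) for HFD-Ve against LFD-Ve, with a median of 0.42. The 17 measured genes with a window but without the motif ranged from -0.70 (Arsb) to 0.65 (Fuca1) in the first comparison, with a median of 0.25, and from -0.61 (Fuca1) to 1.88 (Lipa) in the second, with a median of 0.55. The ranges of the genes with and without the motif overlapped in both comparisons.

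Autophagy genes, whose products deliver cell contents to the lysosome, showed little of this. Of 27 measured, 0 were at least 1.5-fold higher and 1, Map1lc3a, was lower in HFD-Rapa than HFD-Ve (median -0.08), and 2 (Gabarapl2 and Pik3r4) were higher and 0 lower in HFD-Ve relative to LFD-Ve (median 0.04). All genes split into 8.55% higher and 7.56% lower in the first comparison and 15.1% higher and 11.7% lower in the second.

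Macrophage markers also differed between the arrays. Of 17 measured, 7 were at least 1.5-fold higher (8.55% of all genes were) and 0 lower in HFD-Rapa relative to HFD-Ve, with a median of 0.51. Against LFD-Ve, 15 were higher (15.1% of all genes) and 1 lower (Cd163) in HFD-Ve, with a median of 1.43. Their summed linear signal was 122215 in HFD-Rapa, 90820 in HFD-Ve and 39541 in LFD-Ve, a sum that gives most weight to the brightest probes. The 6 measured markers of lipid-associated macrophages had a median of 0.67 for HFD-Rapa against HFD-Ve and of 3.52 (3.05 at their bounds) for HFD-Ve against LFD-Ve, and among them Trem2, a lipid receptor, had 12.70 in HFD-Rapa, 11.85 in HFD-Ve and 7.54 in LFD-Ve. Of the lysosomal genes, 5 exceeded the median macrophage marker for HFD-Rapa against HFD-Ve, namely Atp6v0b (0.74), Fuca1 (0.65), Npc1 (0.58), Lipa and Atp6v1a. Lipa and Atp6v1a, at 0.51 as well, exceeded it only in further decimals. Fuca1 was dim, and the probes of Npc1 disagreed. For HFD-Ve against LFD-Ve 2 lysosomal genes, Lipa and Glb1, exceeded it.

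Adipocyte markers were lower under rapamycin. Of 9 measured, 0 were higher and 5 lower (Retn, Slc2a4, Lipe, Plin1 and Pparg) in HFD-Rapa than HFD-Ve (median -0.92), where 7.56% of all genes were lower. Against LFD-Ve, 1 was higher (Lep) and 4 lower (the same without Lipe) in HFD-Ve (median -0.20), where 15.1% of all genes were higher and 11.7% lower. Their summed signal was 60736 in HFD-Rapa, 76566 in HFD-Ve and 71674 in LFD-Ve. For HFD-Rapa against HFD-Ve and for HFD-Ve against LFD-Ve, the 7 endothelial markers had medians of -0.90 and -0.17, the 7 fibroblast and preadipocyte markers 0.14 and 0.65, and the 5 mesothelial markers 0.77 and -0.24. In the same comparisons the 5 T cell markers had medians of 0.97 and 0.23, the 3 B cell markers 1.06 and 0.72, and the 6 neutrophil markers 0.73 and 0.33 (at their bounds 0.42 in place of 0.72 for B cells, and 0.24 and 0.15 for neutrophils). Ly6g, which defines neutrophils, was not measured. The part of any of these cell types in the lysosomal differences was not tested.

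**Figure D4:**
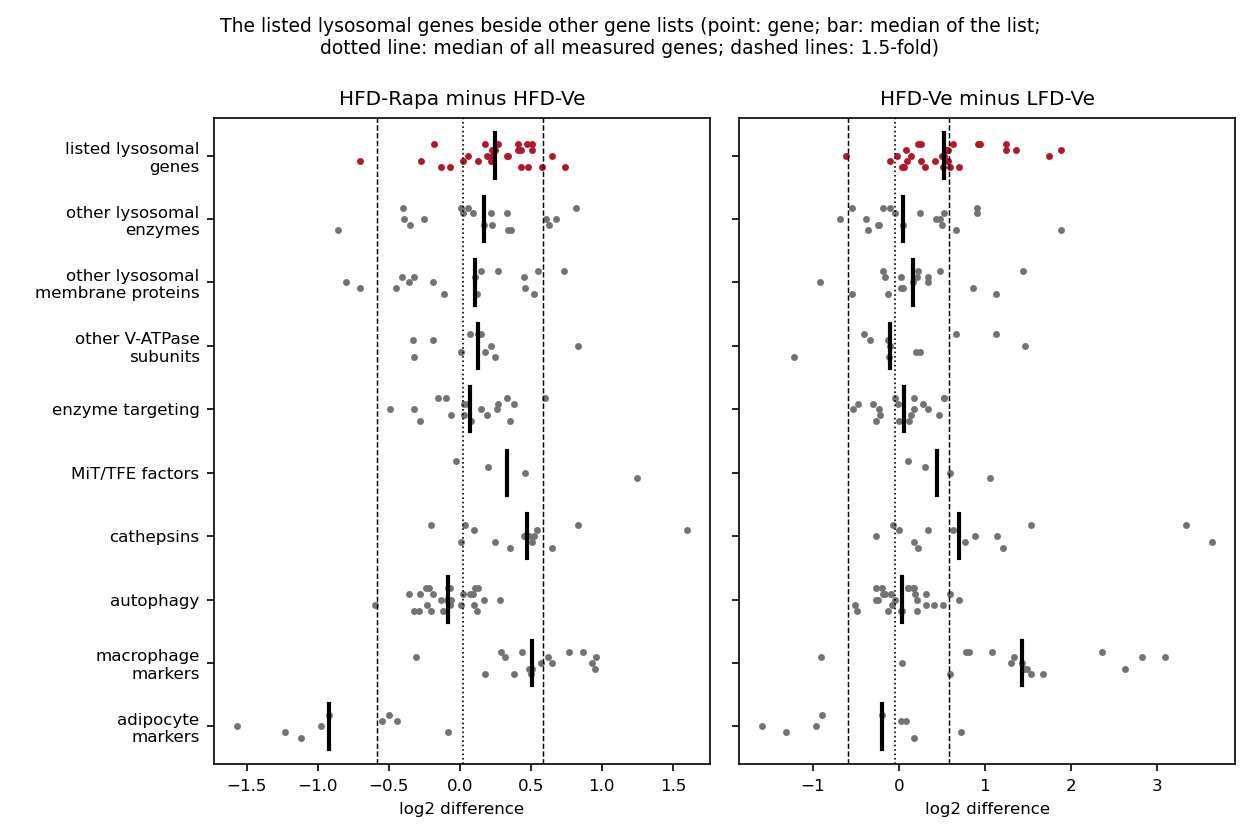
Log2 difference (x axis) for HFD-Rapa minus HFD-Ve and for HFD-Ve minus LFD-Ve of single genes (points), with the median of each list (bar), the median of all measured genes (dotted line) and 1.5-fold (dashed lines); rows are gene lists, and undetected genes stand at their measured difference. The median of the listed lysosomal genes is 0.24 and 0.52, below that of the macrophage markers (0.51 and 1.43) and above that of the adipocyte markers (-0.92 and -0.20).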

How the data were processed

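The authors deposited the signal intensity of 45281 probes per array read with GenomeStudio, a tool named in the submitters' processing notes; its version is not given in the sources used here. These signals are raw, with no normalization and no background subtraction. The authors also deposited a detection p-value for each signal, which sets it against the negative controls of the same array. A second deposited table holds processed intensity values on a linear scale, for which the methods name GeneSpring GX and no normalization; it served only as an alternative.

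Signals were corrected for background with limma 3.58.1 in R 4.3.3 (detection p based, offset 16), quantile normalized and put on the log2 scale. A probe was kept (18954 were) when any of the 3 arrays gave it a detection p under 0.01, and each gene was represented by its brightest kept probe. Dim genes gain wider differences from the background correction. Of 34903 probes in the platform annotation, 34885 carried 1 gene symbol, 18 carried several and were left unnamed, and the arrays hold 10378 further probes without a name here. The genes of 34807 named probes were in the reference table (GRCm38.p6) and 0 symbols were updated. Counts and medians came from pandas 2.3.3 and numpy 2.4.6, and figures from matplotlib 3.10.9, under Python 3.11.15. The steps were tested on simulated arrays in which few probes changed, as many up as down. That test could not show how quantile normalization acts on arrays that differ broadly. The number of arrays limits the precision.

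The genes described, 20 other lists (232 genes, 178 measured) and the threshold were chosen with earlier results of these data known. Every listed gene is accounted for. From each of the other lists at most 4 genes were to be named, the genes that differed most between HFD-Rapa and HFD-Ve or between HFD-Ve and LFD-Ve among those detected on both arrays, and counts and medians cover the whole list. Where the dimmer array did not detect a gene, its fold is a lower bound only. As alternatives, the background correction was left out or its offset set to 50, median scaling or a common 75th percentile replaced quantile normalization, and the authors' processed values were used. Also tried were 3 other detection filters, the mean of a gene's probes, every kept probe, a 2-fold threshold, undetected genes at their bounds, and differences minus the median of all genes.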

Additional observations from a re-analysis of the deposited data

How the results depend on the processing

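The median log2 difference of the lysosomal genes stayed above 0 in each comparison under each alternative run, at 0.17 to 0.29 for HFD-Rapa against HFD-Ve, 0.48 to 0.73 for HFD-Ve against LFD-Ve and 0.66 to 0.84 for HFD-Rapa against LFD-Ve. Counts at 1.5-fold moved more. For HFD-Rapa against HFD-Ve, 1 gene (in place of 2) was higher without background correction, with an offset of 50 and in the authors' processed values, and 0 at a 2-fold threshold. In the same comparison 0 (in place of 1) were lower with the mean of a gene's probes and at 2-fold, and 2 of 52 probes when every kept probe was counted. For HFD-Ve against LFD-Ve, 18 genes (in place of 10) were higher with median scaling, 5 at 2-fold, and 19 of 52 probes. There, 0 (in place of 1) were lower without background correction, with an offset of 50, with median scaling, in the authors' processed values, at 2-fold and after subtraction of the median of all genes. For HFD-Rapa against LFD-Ve, 8 genes (in place of 18) were higher at 2-fold, and 28 of 52 probes. Of 990 differences of single genes under the alternatives, 8 moved by more than the spread between probes and 11, all under 1.5-fold, changed sign, for instance those of Mcoln1 under median scaling. All 30 genes were detected on all 3 arrays, so the 3 other detection filters and the bounds, with 90 differences each, could change none. The mean of a gene's probes could change only the 12 genes with several kept probes. The 990 therefore include many differences that were fixed in advance. No paired analysis was possible because each group has 1 array. The cause of these changes was not tested, and differences of Fuca1 are limited by its dim signal.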
